A study of Rattus norvegicus with 20 samples.

Results

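Messenger RNA of 7 genes that build triglyceride and coat its storage droplets was followed in rat liver: Gpam, Agpat2, Lpin1, Lpin2, Dgat1, Dgat2 and Plin2. They were taken as every probe set, the group of probes that reads 1 transcript end on the array, whose only annotated gene symbol is 1 of these 7. The rule gave 12 probe sets of 7 genes, out of 27702 probe sets of 13462 genes that carried values. Their NCBI gene IDs are 29653 (Gpam), 311821 (Agpat2), 313977 (Lpin1), 316737 (Lpin2), 84497 (Dgat1), 252900 (Dgat2) and 298199 (Plin2). The study placed liver RNA of 20 male Sprague-Dawley rats, 5 rats per diet, on an Affymetrix array that reads the 3′ end of messages. All rats arrived at 4 weeks of age, spent 5 days on a commercial non-purified diet and then ate their experimental diet for 21 days. In the conventional soybean diet the protein came from casein and the cultivar Fukuyutaka in 1:1 parts. In the 3:1 high-isoflavone diet it came from casein and the cultivar Yukipirika in 3:1 parts, and in the 1:1 high-isoflavone diet from the same pair in 1:1 parts. The casein diet held 200 g of casein per kg and no soybean, and casein was present in all 4 diets. The 4 diets had been fed to 7, 7, 8 and 7 rats in the order conventional, 3:1, 1:1 and casein, and the 5 rats per diet put on arrays were those with an average food intake. The question named by the series is what soybeans and their isoflavones, plant compounds that bind estrogen receptors, do to liver messages. The diets differ in whole soybean as well as in isoflavones, which cannot be told apart against casein.

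Liver cells make triglyceride by adding fatty acids to a glycerol backbone in steps. Gpam, the mitochondrial glycerol phosphate acyltransferase, attaches the first fatty acid, Agpat2 attaches the second, the lipins Lpin1 and Lpin2 remove the phosphate, and Dgat1 or Dgat2 attach the last fatty acid. The product leaves the cell in lipoproteins or is stored in droplets, whose main coat protein in hepatocytes is Plin2. In liver, Gpam is known as a target of the insulin-responsive factor SREBP-1c, Lpin1 as a gene induced by fasting and glucocorticoids, and Plin2 as a gene that follows the lipid content of the cell and the fatty acid receptor PPARα.

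The promoters of Gpam and Plin2 are shown because these are the 2 genes with a probe set past the threshold of the test below. Each run is the 250 bases before an annotated start, from RefSeq on build GRCr8, 5′ to 3′ on the strand of the gene, and capitals mark a motif match. Plin2 has 2 annotated starts. The Gpam run is chr1:264175912-264176161, the first Plin2 run chr5:106229019-106229268 and the second chr5:106228538-106228787, all on the minus strand.
Gpam: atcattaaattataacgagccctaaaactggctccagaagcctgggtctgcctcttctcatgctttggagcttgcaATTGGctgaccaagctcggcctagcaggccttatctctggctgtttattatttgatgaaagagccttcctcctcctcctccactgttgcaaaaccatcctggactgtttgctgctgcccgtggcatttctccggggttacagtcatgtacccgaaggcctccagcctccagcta
Plin2, first start: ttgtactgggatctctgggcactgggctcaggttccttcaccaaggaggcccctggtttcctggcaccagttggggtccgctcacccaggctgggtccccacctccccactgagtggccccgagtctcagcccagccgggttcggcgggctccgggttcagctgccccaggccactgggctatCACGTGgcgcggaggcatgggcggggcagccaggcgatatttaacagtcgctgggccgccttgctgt
Plin2, second start: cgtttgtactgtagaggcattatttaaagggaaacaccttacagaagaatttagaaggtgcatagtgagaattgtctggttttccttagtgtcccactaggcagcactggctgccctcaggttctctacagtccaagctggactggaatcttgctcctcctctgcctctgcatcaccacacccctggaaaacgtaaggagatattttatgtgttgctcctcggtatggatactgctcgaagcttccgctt
Both strands were searched for CACGTG, the E-box, and CCAAT, the box bound by the factor NF-Y. Gpam held 1 CCAAT match, which reads ATTGG on the printed strand and begins 174 bases before the start. The first Plin2 run held 1 CACGTG match that begins 67 bases before the start, and the second held neither motif. Of 33469 rat promoters of the same length, 34.0% held CCAAT and 5.59% held CACGTG. Other, longer motifs were tried as well and are not reported here. These matches describe letters only, and nothing is drawn from a motif that was not found. Promoters of 5 of the 7 genes were in the table used, without Dgat1 and Dgat2.

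Values are log2 signals, so a difference of 1 is a 2-fold difference, and 5 rats per diet limit the precision. The labels number the rats of a diet, each a separate animal. Differences were tested with limma across all 27702 probe sets. Below, called means a Benjamini-Hochberg adjusted p under 0.05. The conventional soybean arrays had medians of 2.51 to 2.56 and the casein arrays 2.43 to 2.49 without overlap, and the median difference of conventional soybean minus casein over all probe sets was 0.06. Beta-actin 3′ probes read 1.07 to 2.13 (log2) above the 5′ probes on the 20 arrays, a measure of RNA integrity. The arrays of 3:1 rat 1 and casein rat 5 stood apart by a higher lowest signal, 0.471 and 0.447 against at most -0.879 on the other 18 arrays, and calls are given below with and without them. In the conventional diet 62% of all called probe sets were higher than in casein, but 35.4% after quantile normalization and 25.1% after centring and scaling the arrays. For the 1:1 high-isoflavone diet these shares were 51.7%, 38.6% and 27.6%.

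Of the 12 probe sets, 1 of Gpam rose and 1 of Plin2 fell on conventional soybean, none was called on the 3:1 high-isoflavone diet, and the same probe set of Plin2 fell on the 1:1 high-isoflavone diet. Over all probe sets, limma called 1.64% on conventional soybean (1.01% higher and 0.621% lower), 0.0397% on the 3:1 diet and 2.21% on the 1:1 high-isoflavone diet (1.14% higher and 1.07% lower). At those shares under 1 of 12 probe sets would be called on each diet. The 12 are no unselected draw, since the genes were chosen with earlier results of these data known. Of the 7 genes 5 have 2 probe sets, so the 12 are also not independent. The shares here and below are therefore a reference and not a test. At an unadjusted p under 0.05 there were 5 of 12 on conventional soybean, 2 on the 3:1 diet and 6 on the 1:1 high-isoflavone diet, where 16.8%, 8.12% and 16.8% of all probe sets were under it. The median difference from casein of the 12 was -0.16 on conventional soybean, -0.15 on the 3:1 diet and -0.05 on the 1:1 high-isoflavone diet, against 0.06, 0.01 and 0.04 over all probe sets. The 3 comparisons use the same 5 casein rats. The sentences below turn on the probe set of each gene with the highest mean signal, called the brighter one, and the other is given where a gene has 2.

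**Figure D1:**
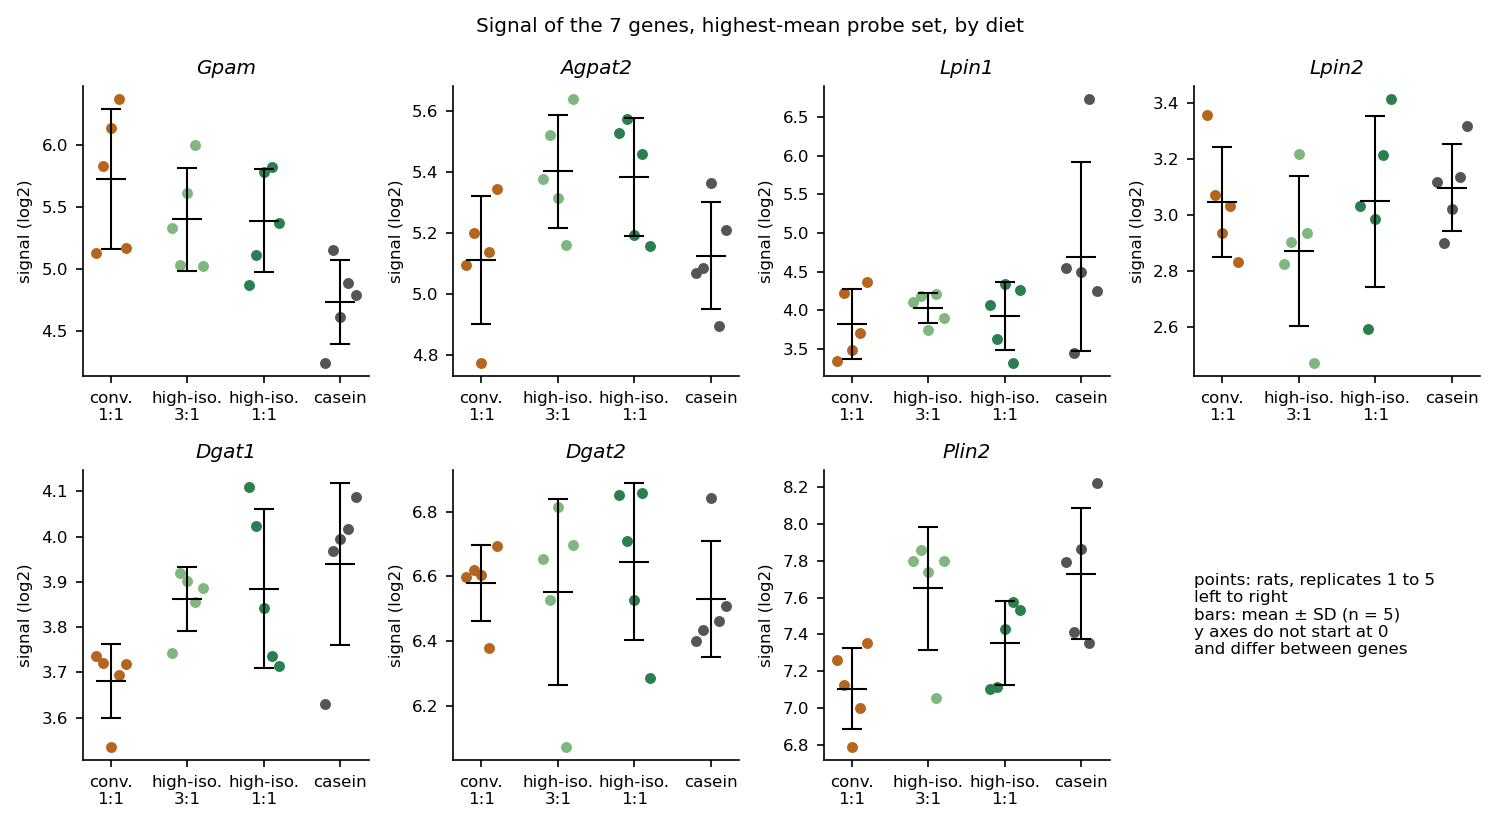
Signals (log2) of the brighter probe set of the 7 genes, 1 point per rat (5 per diet, replicates 1 to 5 left to right) with mean and SD, for conventional soybean, high-isoflavone 3:1, high-isoflavone 1:1 and casein; axes differ between genes and do not start at 0. Gpam is lowest on casein (mean 4.74), Plin2 is lowest on conventional soybean (mean 7.11), and in Lpin1 1 casein rat stands at 6.74.

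Gpam, the enzyme of the first step, was higher on conventional soybean than on casein. In its brighter probe set the 5 rats on conventional soybean had signals of 5.13, 5.83, 6.14, 6.37 and 5.17. Rats on the 3:1 high-isoflavone diet had 5.34, 5.03, 5.62, 6.0 and 5.03, and those on the 1:1 high-isoflavone diet 4.87, 5.12, 5.78, 5.83 and 5.37. The casein rats had 4.25, 5.15, 4.61, 4.89 and 4.79. The 4 highest signals of the conventional diet lay above all casein rats, and its lowest, 5.13, lay just under the highest casein rat, 5.15. The means were 5.73 ± 0.561 on conventional soybean, 5.40 ± 0.414 on the 3:1 diet, 5.39 ± 0.415 on the 1:1 high-isoflavone diet and 4.74 ± 0.338 on casein (SD, n = 5 each), in that order from high to low. Gpam rose on conventional soybean by 0.99 (SE 0.248, adjusted p = 0.0455), a 1.99-fold difference with a 95% interval of 0.48 to 1.5 on the log2 scale. On the 3:1 and 1:1 high-isoflavone diets the differences were 0.67 (adjusted p = 0.468) and 0.66 (adjusted p = 0.174), with intervals of 0.15 to 1.18 and 0.14 to 1.17, and neither was called. The 2 high-isoflavone diets differed by -0.01 (1:1 minus 3:1, interval -0.52 to 0.50), and the rats of conventional soybean and the 3:1 diet overlapped, a pair whose difference was not tested.

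The call for Gpam sat close to the threshold. It was lost when any 1 of 11 of the 20 arrays was left out, at an adjusted p of up to 0.108. Those arrays were all 5 of casein, conventional rats 2, 3 and 4, 3:1 rats 1 and 3 and 1:1 rat 2. It was also lost after centring and scaling of the arrays (0.88, adjusted p = 0.0637), without the trend in the test's variance (0.0616), with only the 10 arrays compared (0.0622) and without the arrays numbered 1 (0.0563). Without 3:1 rat 1 and casein rat 5 together the adjusted p was 0.103, while the difference there was 1.0. It held after quantile normalization, with the replicate block and without the dimmest 25% of probe sets. The other probe set of Gpam, at the 26.3rd percentile of mean signal among all probe sets, did not follow the brighter one. It had 1.90, 1.95, 1.16, 2.0 and 1.94 on conventional soybean, 2.08, 1.70, 2.22, 1.16 and 2.18 on the 3:1 diet, 1.12, 1.30, 1.74, 2.44 and 1.41 on the 1:1 high-isoflavone diet and 1.66, 2.07, 2.81, 2.08 and 2.66 on casein. Its differences from casein lay below 0, at -0.46 (adjusted p = 0.372), -0.39 (0.769) and -0.65 (0.198) in the same order of diets, and all diets overlapped. Taken within each rat, the dimmer minus the brighter Gpam probe set differed from casein rats by -1.46 on conventional soybean, -1.05 on the 3:1 diet and -1.31 on the 1:1 high-isoflavone diet. An exact two-sided permutation test over rats gave p = 0.007937, 0.01587 and 0.007937, where 0.007937 is the smallest p that 5 against 5 allow. After adjustment over the 21 tests of this kind they were 0.0833, 0.111 and 0.0833. The smallest possible p, reached on conventional soybean and on the 1:1 high-isoflavone diet, thus itself adjusted to 0.0833. With 5 rats per diet no smaller p was possible, and how it adjusts depends on how many of the 21 tests reach it. For this reason the adjusted test does not decide whether the probe sets changed unequally. The rise of Gpam therefore rests on 1 probe set.

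Agpat2, the acyltransferase of the second step, was not called on any diet. Its signals were 4.78 to 5.34 (median 5.14) on conventional soybean, 5.16 to 5.64 (median 5.38) on the 3:1 diet, 5.16 to 5.57 (median 5.46) on the 1:1 high-isoflavone diet and 4.89 to 5.37 (median 5.09) on casein. Conventional soybean and casein had nearly the same mean, with a difference of -0.01 (95% interval -0.26 to 0.23, adjusted p = 0.964). On both high-isoflavone diets Agpat2 averaged higher than on casein, by 0.28 on the 3:1 diet (SE 0.119, adjusted p = 0.561) and 0.26 on the 1:1 diet (SE 0.119, adjusted p = 0.277), with overlapping rats.

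Lpin1, a lipin that also acts as a coactivator of transcription in liver, showed 1 rat far above all others. Its brighter probe set had 3.34, 4.22, 3.48, 3.71 and 4.36 on conventional soybean. Signals were 4.10, 4.19, 3.74, 4.21 and 3.90 on the 3:1 diet and 4.07, 3.63, 4.34, 3.32 and 4.27 on the 1:1 high-isoflavone diet. The casein rats had 4.54, 3.45, 4.49, 6.74 and 4.25. Casein rat 4 was 5.86-fold above the mean of the other 4 casein rats, 4.18 ± 0.507 (SD). In the other Lpin1 probe set it read 6.33, which was 4.81-fold above the mean of the same 4 rats there. Differences from casein were -0.87 on conventional soybean (SE 0.386, adjusted p = 0.253), -0.67 on the 3:1 diet (adjusted p = 0.715) and -0.77 on the 1:1 high-isoflavone diet (adjusted p = 0.324). Without casein rat 4 they were -0.36 (adjusted p = 0.489), -0.16 (0.944) and -0.26 (0.670), so most of the difference came with that rat. The other probe set gave -0.60, -0.59 and -0.70 with all rats and -0.14, -0.14 and -0.24 without casein rat 4. No source used here gives the hour of sampling or the feeding state of the rats.

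Lpin2, the other lipin, did not differ from casein beyond the spread of the rats. Its brighter probe set ran between 2.83 and 3.36 on conventional soybean, 2.47 and 3.22 on the 3:1 diet, 2.59 and 3.41 on the 1:1 high-isoflavone diet, and 2.90 and 3.32 on casein. The differences from casein were -0.05 (95% interval -0.36 to 0.25), -0.23 (-0.53 to 0.08) and -0.05 (-0.35 to 0.25), and all diets overlapped. Its other probe set gave 0.08, -0.21 and 0.05 in the same order, none called (adjusted p of 0.794 to 0.921), so the sign on the conventional and 1:1 diets was opposite in the 2 probe sets. Within a rat, Lpin1 minus Lpin2 differed from casein rats by -0.82 on conventional soybean (exact permutation p = 0.2063, 0.470 after adjustment), which was -0.32 without casein rat 4.

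Neither of the 2 enzymes of the last step was called. Dgat1 had 3.74, 3.72, 3.54, 3.69 and 3.72 on conventional soybean, 3.74, 3.92, 3.90, 3.86 and 3.89 on the 3:1 diet, 4.11, 4.02, 3.84, 3.74 and 3.71 on the 1:1 high-isoflavone diet and 3.63, 3.97, 3.99, 4.02 and 4.09 on casein. All 5 rats on conventional soybean lay below 4 of the casein rats and overlapped only with casein rat 1. The difference of conventional soybean from casein was -0.26 (SE 0.0966, 95% interval -0.46 to -0.06, adjusted p = 0.177), -0.34 without casein rat 1 (adjusted p = 0.0655), and of 28 alternatives it passed the threshold in 1, centring and scaling of the arrays (-0.35, adjusted p = 0.0400). On the 3:1 and 1:1 high-isoflavone diets Dgat1 differed from casein by -0.08 and -0.05. Dgat2, which takes up newly made fatty acids, had medians of 6.61, 6.65, 6.71 and 6.46 on conventional soybean, the 3:1 diet, the 1:1 high-isoflavone diet and casein. Its differences from casein, 0.05, 0.02 and 0.12, were smaller than the rats' spread and turned negative after centring and scaling (-0.09, -0.06 and -0.03). The interval of the largest, -0.15 to 0.38, still allows a change of up to that size. The other Dgat2 probe set gave 0.02, 0.18 and 0.16, none called (adjusted p of 0.679 to 0.956). Dgat2 minus Dgat1 within a rat was 0.31 higher on conventional soybean than on casein (exact permutation p = 0.03968, 0.139 after adjustment).

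Plin2, the droplet coat protein, averaged lower on conventional soybean and on the 1:1 high-isoflavone diet, but only its dimmer probe set was called on either. The brighter probe set had 7.26, 7.13, 6.79, 7.00 and 7.35 on conventional soybean. It read 7.80, 7.86, 7.74, 7.06 and 7.80 on the 3:1 diet and 7.10, 7.11, 7.43, 7.58 and 7.53 on the 1:1 high-isoflavone diet. The casein rats had 7.79, 7.41, 7.86, 7.35 and 8.22. No rat on conventional soybean reached the lowest casein rat, although the nearest pair both stand at 7.35 when rounded. Means were 7.11 ± 0.221 on conventional soybean, 7.65 ± 0.335 on the 3:1 diet, 7.35 ± 0.227 on the 1:1 high-isoflavone diet and 7.73 ± 0.356 on casein (SD, n = 5 each), so the order from high to low was casein, 3:1, 1:1 and conventional. The difference of conventional soybean from casein was -0.62 (SE 0.167, 95% interval -0.97 to -0.28, adjusted p = 0.0606), just short of the threshold. It passed after quantile normalization (adjusted p = 0.0484), after centring and scaling (0.0370), with the replicate block (0.0395), and without casein rat 4 (0.0465) or 3:1 rat 4 (0.0291). On the 3:1 diet the difference was -0.08 (interval -0.43 to 0.27) and on the 1:1 high-isoflavone diet -0.38 (interval -0.72 to -0.03, adjusted p = 0.255).

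The dimmer Plin2 probe set, at the 22.7th percentile of mean signal, ran in the same direction. It had 1.5, 1.53, 0.52, 1.10 and 1.86 on conventional soybean, 2.27, 1.84, 1.92, 1.88 and 2.36 on the 3:1 diet, 1.34, 1.24, 1.78, 1.86 and 1.17 on the 1:1 high-isoflavone diet and 2.05, 1.99, 2.49, 2.25 and 2.63 on casein. All rats on conventional soybean and all on the 1:1 high-isoflavone diet lay below all casein rats, and the rats of the 3:1 diet did not separate from them. Without overlap were 2 of the 12 probe sets on conventional soybean (both of Plin2), 0 on the 3:1 diet and 1 on the 1:1 high-isoflavone diet, where 4.62%, 1.81% and 4.45% of all probe sets did so. It fell on conventional soybean by 0.98 (SE 0.210, adjusted p = 0.0221) and on the 1:1 high-isoflavone diet by 0.80 (SE 0.210, adjusted p = 0.0463), and on the 3:1 diet differed by -0.23 (adjusted p = 0.858). The call on conventional soybean was lost without casein rat 3 (adjusted p = 0.0543), casein rat 5 (0.0672) or conventional rat 3 (0.0526), with only the 10 arrays compared (0.0533), and without 3:1 rat 1 and casein rat 5 together (0.0736). The call on the 1:1 high-isoflavone diet was lost when any of 14 of the 20 arrays was left out, at an adjusted p of up to 0.123: all 5 of casein, conventional rats 1 and 2, 3:1 rats 1 to 4 and 1:1 rats 1, 2 and 5. Without 3:1 rat 1 and casein rat 5 together its adjusted p was 0.131, without the arrays numbered 1 it was 0.111, without the trend 0.0526 and with the replicate block 0.0564. Within a rat, the dimmer minus the brighter Plin2 probe set differed from casein rats by -0.36 on conventional soybean and -0.43 on the 1:1 high-isoflavone diet (exact permutation p = 0.06349 and 0.02381, 0.191 and 0.125 after adjustment). A test for any difference among the 4 diets called this probe set alone of the 12 (adjusted p = 0.0335), where 1.35% of all probe sets were called. That call was lost without casein rat 2, 3, 4 or 5, conventional rat 4 or 1:1 rat 2, at up to 0.0880. In whole liver, fewer cells of a type and less message per cell cannot be told apart.

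**Figure D2:**
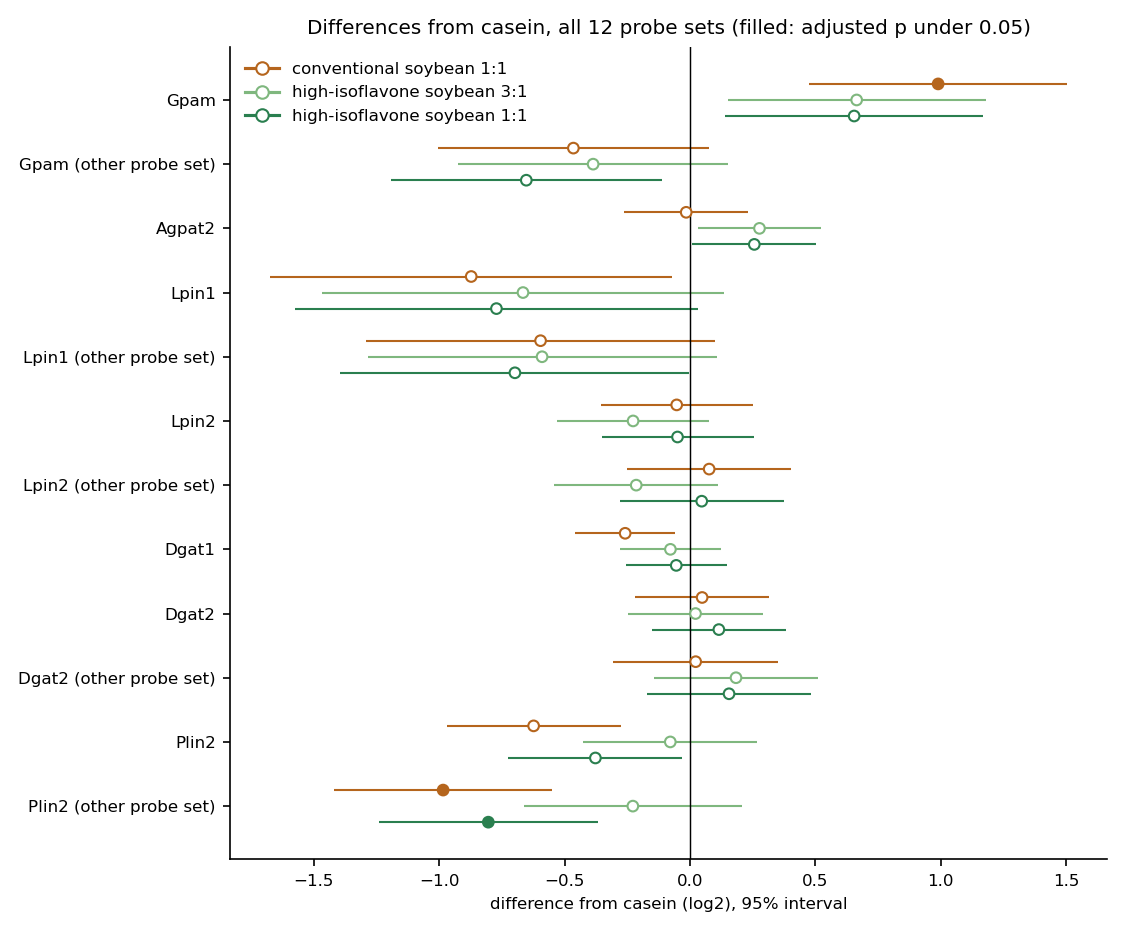
Difference from casein (log2, point) with its 95% interval (line) for all 12 probe sets on conventional soybean, high-isoflavone 3:1 and high-isoflavone 1:1; filled points have an adjusted p under 0.05. The filled points are Gpam on conventional soybean at 0.99 and the dimmer Plin2 probe set at -0.98 on conventional soybean and -0.80 on the 1:1 high-isoflavone diet.

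Where a gene had 2 probe sets, their agreement over the 20 rats differed from gene to gene. For Lpin1 Pearson's r was 0.979 and Spearman's rho 0.896 (permutation p = 1e-05 for each, the smallest that 100000 resamples can give), and r was 0.916 without the 2 rats farthest from the median. For Plin2 r was 0.802 (permutation p = 2e-05) and rho 0.750 (0.00029), with r = 0.685 without the 2 farthest rats and 0.609 for deviations from the diet means. For Dgat2 r was 0.752 (permutation p = 0.00013) and rho 0.779 (8e-05), with r = 0.720 without the 2 farthest. The probe sets of Gpam (r = -0.231, permutation p = 0.33, rho = -0.191) and of Lpin2 (r = 0.207, permutation p = 0.38, rho = 0.224) did not track each other. Adjusted over these 5 relations, the p-values for Lpin1, Plin2 and Dgat2 were 5e-05, 5e-05 and 0.00022. The permutations shuffled all 20 rats without regard to diet, so their p also takes in differences between diet means. For deviations from the diet means r was 0.984 for Lpin1, 0.778 for Dgat2, 0.071 for Gpam and 0.072 for Lpin2.

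**Figure D3:**
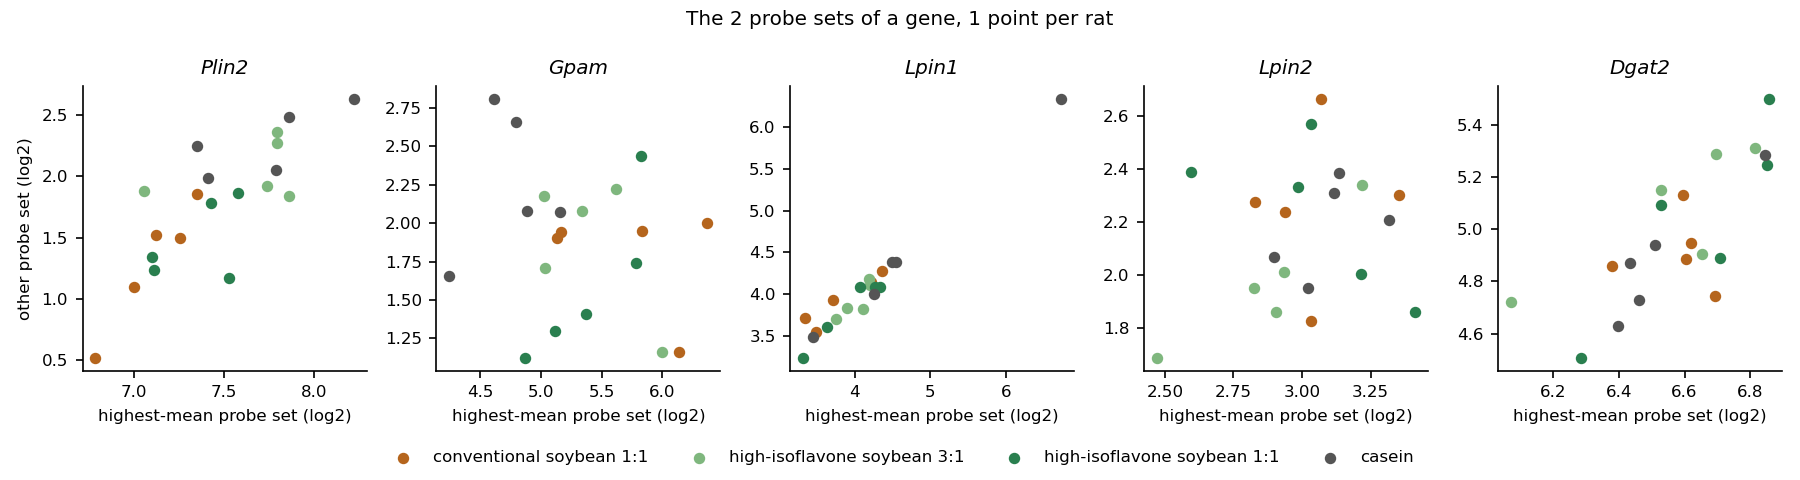
Signal (log2) of the dimmer probe set against the brighter one for the 5 genes with 2 probe sets, 1 point per rat, coloured by diet. Plin2, Lpin1 and Dgat2 run along a line (r = 0.802, 0.979 and 0.752), with casein rat 4 at the far end in Lpin1, and Gpam and Lpin2 do not (r = -0.231 and 0.207).

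In the 2 pairs of soybean diets tested no probe set of the 7 genes was called, and conventional soybean against the 3:1 diet, which differ in cultivar and share, was not tested. With the cultivars at the same share, limma called 0 of 12 for 1:1 high-isoflavone minus conventional soybean (2 at an unadjusted p under 0.05), where 0.0758% of all probe sets were called and 7.07% had an unadjusted p under 0.05. The 2 were Agpat2, 0.27 higher on the 1:1 high-isoflavone diet (unadjusted p = 0.0326, adjusted p = 0.663), and Dgat1, 0.20 higher (unadjusted p = 0.0469, adjusted p = 0.703). Gpam differed by -0.34 (interval -0.85 to 0.18) and Plin2 by 0.25 in the brighter probe set (interval -0.10 to 0.59) and 0.18 in the dimmer one (-0.26 to 0.62). For 1:1 minus 3:1 high-isoflavone soybean limma called 0 of 12 (1 at an unadjusted p under 0.05), and 0% of all probe sets, of which 2000 (7.22%) had an unadjusted p under 0.05. The 1 was the dimmer Plin2 probe set, -0.58 (unadjusted p = 0.0120, adjusted p = 0.600), and the brighter one differed by -0.30 (adjusted p = 0.739).

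The genes whose signals followed each of the 7 most closely over the 20 arrays were named by the highest Pearson r among 10140 probe sets above the median signal, so no p is given, and these arrays share diet, processing and signal range. For Gpam they were Fam229b (r = 0.939), Mup5 (0.869) and Exoc1 (0.86), and for Plin2 Rhou (0.888), Slc26a1 (0.865) and Palld (0.857). For Agpat2 they were Tmem37 (0.833), Gjb1 (0.809) and Litaf (0.795). For Dgat1 Elovl1 (0.829), Ggcx (0.829) and Psmd3 (0.787) came first, and for Dgat2 Frmd8 (0.789), Atp2b3 (0.775) and Irf1 (0.772). Lpin1 was followed by Pcyt1a (0.79), Srsf4 (0.783) and Tsr1 (0.751), each highest in casein rat 4, and Lpin2 by Sec23b, Ecd and Vdac3 (0.703 to 0.73).

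Around these 7 genes, 60 of 63 further genes of triglyceride metabolism were measured. None was called in the 2 pairs of soybean diets tested or on the 3:1 diet against casein. Over all probe sets limma called 1.64% on conventional soybean, 0.0397% on the 3:1 diet and 2.21% on the 1:1 high-isoflavone diet against casein. It called 0.0758% for 1:1 high-isoflavone minus conventional soybean and 0% for 1:1 minus 3:1. The lists were chosen with earlier results of these data known, so these shares are a reference and not a test. None of 18 genes of glycerolipid synthesis was called on any soybean diet against casein. The glycerol kinase Gk, which makes glycerol phosphate, was 0.51 higher on the 1:1 high-isoflavone diet (adjusted p = 0.0620) and Gpd1, which makes it from a glycolytic intermediate, differed by -0.43 on conventional soybean (adjusted p = 0.104). Of 15 other droplet genes Plin3, a coat protein of small droplets, was the 1 called on a soybean diet against casein. It averaged 3.73 on the 1:1 high-isoflavone diet and 4.82 on casein, fell there by 1.09 (SE 0.256, adjusted p = 0.0250), and on conventional soybean differed by -0.84 (adjusted p = 0.0960). The Plin3 call was lost without any 1 of casein rats 3, 4 and 5 and 1:1 rats 2 and 4, at an adjusted p of up to 0.0863.

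Of 10 genes listed for triglyceride breakdown, 1 rose and 3 fell on conventional soybean. None was called on the 3:1 diet, and 1 rose and 1 fell on the 1:1 high-isoflavone diet. Of all probe sets 1.64%, 0.0397% and 2.21% were called on these diets, a reference and not a test, since the list was chosen with earlier results known. The 10 include G0s2, an inhibitor of the lipase Pnpla2, so the counts and medians of the list mix genes of opposite action. Ces1d, a lipase of the endoplasmic reticulum, rose by 1.07 on conventional soybean (SE 0.212, adjusted p = 0.0153) and 1.09 on the 1:1 high-isoflavone diet (adjusted p = 0.00842). Pnpla3, a droplet protein acting on triglyceride, fell by 5.04 on the 1:1 high-isoflavone diet (SE 0.944, adjusted p = 0.00647), where it averaged 3.13 against 8.17 on casein, and by 3.69 on conventional soybean (adjusted p = 0.0493). On conventional soybean Abhd5, the activator of the lipase Pnpla2, fell by 0.81 (adjusted p = 0.0160) and Ddhd2, a lipase, by 0.48 (adjusted p = 0.0354). Leaving out casein rat 5 ended the calls for Abhd5 (adjusted p = 0.0557) and Ces1d (0.0551) on conventional soybean. The Ddhd2 call ended without casein rat 2, 3, 4 or 5 or conventional rat 1, 3 or 5 (up to 0.0825). The Pnpla3 call on conventional soybean ended in 16 of 20 omissions (up to 0.111) and held without conventional rat 2 or 4, 3:1 rat 4 or 1:1 rat 3. The values above are of the brightest probe set of each gene. The other 2 probe sets of Pnpla3 fell as well, by 3.75 (adjusted p = 0.0105) and 2.79 (adjusted p = 0.00722) on conventional soybean and by 4.87 (adjusted p = 0.000729) and 3.45 (adjusted p = 0.000685) on the 1:1 high-isoflavone diet. The other probe set of Abhd5 fell by 1.07 on conventional soybean (adjusted p = 0.0251).

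Among 11 genes that supply acyl-CoA, the activated fatty acid, 2 fell on conventional soybean and 3 on the 1:1 high-isoflavone diet. Of all probe sets 0.621% and 1.07% were called lower on these diets. Acsl5, an acyl-CoA synthetase, fell by 0.63 on conventional soybean (SE 0.119, adjusted p = 0.0105) and by 0.94 on the 1:1 high-isoflavone diet (adjusted p = 0.000207), and its other probe set gave -0.64 (adjusted p = 0.110) and -0.95 (adjusted p = 0.0145). Dbi, which carries acyl-CoA, fell by 0.81 (adjusted p = 0.0161) and 0.91 (adjusted p = 0.00435) on the same diets. Acbd3, a Golgi protein with an acyl-CoA binding domain, fell by 0.44 on the 1:1 high-isoflavone diet (adjusted p = 0.00417), although its other probe sets gave -0.19 (adjusted p = 0.348) and 0.43 (adjusted p = 0.268). Of 6 genes that load triglyceride onto lipoproteins, Tm6sf2 fell by 0.62 on conventional soybean (adjusted p = 0.0458), a call lost without casein rats 2 to 5, conventional rats 2 to 5, 3:1 rats 1, 2 and 5 or 1:1 rat 2, each left out alone (up to 0.110). Without 3:1 rat 1 and casein rat 5 together, the calls on conventional soybean for Ces1d, Abhd5, Ddhd2, Tm6sf2 and the brightest Pnpla3 probe set and that for Plin3 on the 1:1 high-isoflavone diet were lost (adjusted p of 0.0633 to 0.121). Without the arrays numbered 1 the same calls other than that of Abhd5 were lost (adjusted p of 0.0529 to 0.103). On conventional soybean the brightest Pnpla3 probe set was also lost without the trend (0.0654) and with the replicate block (0.0639). Tm6sf2 was lost there without the trend (0.0630). The median differences from casein of glycerolipid synthesis, droplet genes, breakdown, acyl-CoA supply and lipoprotein loading were -0.03, -0.09, -0.30, -0.10 and -0.19 on conventional soybean, against 0.06 over all probe sets. On the 3:1 diet they were -0.0025, 0.07, -0.16, 0.03 and -0.03, against 0.01 over all probe sets. On the 1:1 high-isoflavone diet they were 0.0086, 0.011, -0.24, -0.00021 and -0.11, against 0.04 over all probe sets.

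**Figure D4:**
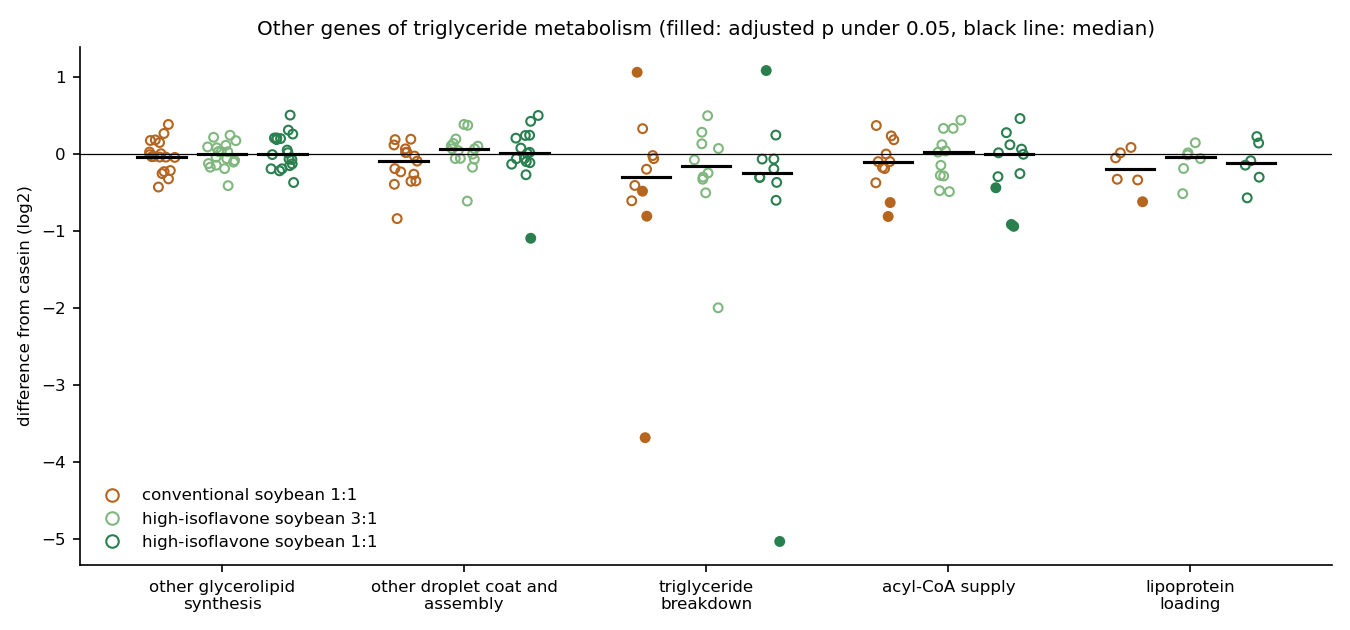
Difference from casein (log2) of each measured gene in 5 lists of triglyceride metabolism on conventional soybean, high-isoflavone 3:1 and high-isoflavone 1:1; filled points have an adjusted p under 0.05 and black lines are medians. Pnpla3 lies far below the rest at -3.69 and -5.04, and glycerolipid synthesis has no filled point.

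Markers of hepatocytes and other cells were read beside these values. All 7 hepatocyte markers lay above the median signal of all probe sets, and 1 of them, the amino acid enzyme Tat, fell by 1.20 on conventional soybean (adjusted p = 0.0487) and fell by 1.25 on the 1:1 high-isoflavone diet (adjusted p = 0.0331). Of 6 adipocyte markers 3 were measured, namely Plin1, Cidec and Cfd. Plin1 and Cidec are also among the other droplet genes above, so the sum of the 3 does not read adipocytes alone. Their summed linear signal ran between 26.5 and 32.1 on conventional soybean, 28.6 and 39.1 on the 3:1 diet, 29.0 and 36.6 on the 1:1 high-isoflavone diet and 29.3 and 45.3 on casein. Of the 3 markers, Cfd fell on the 1:1 high-isoflavone diet by 0.64 (adjusted p = 0.0334). The summed signal of 5 measured macrophage markers ran between 104 and 207 on conventional soybean, 124 and 146 on the 3:1 diet, 86.6 and 121 on the 1:1 high-isoflavone diet, and 114 and 182 on casein, with none called on any diet. All 5 averaged lower on the 1:1 high-isoflavone diet than on casein (median difference -0.36), where 57.2% of all probe sets lay higher (median 0.04). All 5 also averaged lower there than on conventional soybean (median difference -0.29) and on the 3:1 diet (-0.38). Of all probe sets 46.2% lay higher on the 1:1 high-isoflavone diet than on conventional soybean (median -0.02). Against the 3:1 diet 56.3% lay higher (median 0.03). The sums of the 1:1 and 3:1 diets did not overlap. How often sums of 5 other probe sets stand apart was not counted, here and for the lymphocyte markers below. The 5 measured lymphocyte markers summed to between 37.8 and 43.8 on conventional soybean, 29.8 and 45.0 on the 3:1 diet, 32.0 and 38.9 on the 1:1 high-isoflavone diet and 28.7 and 37.0 on casein, so conventional soybean and casein did not overlap. All 5 lay higher on conventional soybean than on casein (median difference 0.12), none called. Of all probe sets 60.3% lay higher in that comparison, with a median difference of 0.06. The 5 pancreas markers, a check for tissue carried along with the liver, summed to between 52.8 and 61.2 on conventional soybean, 48.1 and 54.9 on the 3:1 diet, 36.6 and 57.8 on the 1:1 high-isoflavone diet and 40.4 and 55.7 on casein. All 5 lay higher on conventional soybean (median difference 0.28), none called, against the same 60.3% of all probe sets. Of 7 stellate cell markers 6 lay higher on conventional soybean (median difference 0.22), none called, again against 60.3% of all probe sets. Their sums were 52.7 to 72.5 there, 46.0 to 51.5 on the 3:1 diet, 51.3 to 57.0 on the 1:1 high-isoflavone diet and 46.8 to 60.6 on casein. The sums of endothelial and bile duct markers overlapped between all diets. Adipoq, Lep and Retn were not among the measured probe sets. Of 40 measured markers of 8 cell types, Tat, Cfd and the bile duct marker Epcam were called against casein. Epcam differed by -0.71 on conventional soybean (adjusted p = 0.0257) and -0.95 on the 1:1 high-isoflavone diet (adjusted p = 0.00251). Of all probe sets 1.64% were called on conventional soybean, 0.0397% on the 3:1 diet and 2.21% on the 1:1 high-isoflavone diet. The part of other cells in the Plin2 and Gpam differences was not tested.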

How the data were processed

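The authors deposited 1 table of log10 values for the 20 arrays, normalized per the labels by a service named SuperNORM. No label states the base, which was inferred since spike-in controls of known amount gave a slope of 0.997 (SD 0.0242, 20 arrays), and the values were multiplied by 3.3219 to give log2. Depth does not apply to arrays. Of 31099 probe sets, 57 controls and 3342 without any value were left out, 2 of them in both classes, which left 27702. Of these 19147 had 1 gene symbol, 404 several and 8151 none, and none was named from several. Arrays were placed in diets by their titles, matched to the diet descriptions by wording.

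Limma 3.58.1 in R 4.3.3 fitted 1 mean per diet over 20 arrays, with eBayes and a trend, two-sided, and p-values were adjusted over 27702 probe sets. On simulated data (conventional against casein, 27702 probe sets, 200 changed) it recovered 30% of changes of 0.5 and 80% of changes of 1 log2, with 6 false calls. The simulated noise was independent between probe sets and held no array-wide shifts, so these rates need not hold for the real arrays. The within-rat differences used an exact permutation test. The members and gene lists were chosen with earlier results of these data known. From each list are named the called genes, up to 3 per comparison, and otherwise the largest differences, and for each member the 3 genes of highest Pearson r. Alternatives were quantile normalization, centring and scaling, a filter on the dimmest 25% of probe sets, no trend, only the 10 arrays compared, a replicate block, each array left out, the 2 arrays of higher lowest signal left out, and the arrays numbered 1 left out. They were tabulated for the results given one by one, a restriction made after the first run.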

Additional observations from a re-analysis of the deposited data

Results flagged for a closer look

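Of 48 groups of 5 rats (12 probe sets, 4 diets), 5 held a rat whose gap to the next exceeded 0.71 of the group's range, where chance gives about 1 in 20 groups. In the dimmer Gpam probe set conventional rat 3 was lowest at 1.16, with the next at 1.90. Dgat1 had conventional rat 3 lowest at 3.54 (next 3.69) and casein rat 1 lowest at 3.63 (next 3.97). Dgat2 had casein rat 3 highest at 6.84 (next 6.51). In the brighter Plin2 probe set 3:1 rat 4 was lowest at 7.06 (next 7.74), and without that rat the 3:1 minus casein difference of Plin2 was 0.07 in place of -0.08. Casein rat 4 in Lpin1, at 6.74, did not pass this limit because the lowest casein rat was also far from the others.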

How the results depend on the processing

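The count of the 12 probe sets called on conventional soybean, 2, was 1 without the dimmest 25% of probe sets, 1 without the trend, 1 without the arrays numbered 1, 0 without the 2 arrays of higher lowest signal, 0 with only the 10 arrays compared, and 0 to 3 when 1 array was left out. It was 3 after quantile normalization and with the replicate block (Gpam and both Plin2 probe sets) and 3 after centring and scaling, where Gpam was lost and Dgat1 and the brighter Plin2 probe set passed. The count on the 1:1 high-isoflavone diet, 1, was 0 without the dimmest 25% (which removes the dimmer Plin2 probe set), 0 without the trend, 0 with the replicate block, 0 without the 2 arrays, 0 without those numbered 1, and 0 to 1 with 1 array left out. The test for any diet, 1, was 0 under the filter, 0 without the 2 arrays, 0 without those numbered 1, 2 with the replicate block and 0 to 2 with 1 array left out. The cause was not tested.

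Over all probe sets, calls on conventional soybean were 453, with 120 to 499 when 1 array was left out and 114 to 630 elsewhere. On the 3:1 diet they were 11, with 1 to 26 and 3 to 23, and on the 1:1 high-isoflavone diet 613, with 296 to 716 and 312 to 659. Calls for 1:1 high-isoflavone minus conventional were 21, with 11 to 31 and 12 to 26, and for any diet 373, with 151 to 411 and 124 to 435.

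No called value changed sign. Uncalled ones did. Dgat2 turned to -0.0926, -0.0571 and -0.0252 on the conventional, 3:1 and 1:1 high-isoflavone diets after centring and scaling. Without the 2 arrays of higher lowest signal, Agpat2 on conventional soybean became 0.00655, Lpin2 on conventional soybean 0.00202 and on the 1:1 high-isoflavone diet 0.00531, Dgat2 on the 3:1 diet -0.00769 and the brighter Plin2 on the 3:1 diet 0.00828. Without the arrays numbered 1, Dgat2 on the 3:1 diet became -0.0352. The dimmer Dgat2 probe set on conventional soybean was -0.0101 after quantile normalization, -0.0859 after centring and scaling and -0.0964 without the arrays numbered 1, and the dimmer Lpin2 probe set on the 1:1 high-isoflavone diet -0.00555 without those. With 1 array left out the ranges were -0.0727 to 0.0693 (Agpat2, conventional), -0.13 to 0.00202 (Lpin2, conventional), -0.141 to 0.0642 (Lpin2, 1:1), -0.0427 to 0.142 (Dgat2, 3:1), -0.0421 to 0.121 (dimmer Dgat2, conventional), -0.024 to 0.186 (dimmer Lpin2, conventional), -0.037 to 0.14 (dimmer Lpin2, 1:1), -0.172 to 0.0704 (brighter Plin2, 3:1), -0.0148 to 0.32 (dimmer Plin2, 1:1 minus conventional) and -0.70 to 0.0623 (Lpin1 minus Lpin2, 3:1).

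The main test did not treat the replicate numbers as pairs. The 30 same-number pairs had correlations of deviations of -0.163 to 0.401 (median 0.034), 12 above 0.1. The 120 different-number pairs had -0.329 to 0.287 (median -0.008), and 7 of 20 arrays correlated best with their own number. With the replicate block, calls over all probe sets were 591 on conventional soybean, 23 on the 3:1 diet and 659 on the 1:1 high-isoflavone diet, against 453, 11 and 613. Whether the numbers mark a shared processing step was not tested. With the replicate block Gpam passed the test for any diet (adjusted p = 0.0274) and the brighter Plin2 probe set that on conventional soybean (0.0395), while the dimmer Plin2 probe set on the 1:1 high-isoflavone diet did not pass (0.0564). The dim probe sets of Gpam and Plin2 limit what their differences show.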
